A study of Rattus norvegicus with 30 samples.

Results

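Rat hepatocytes exposed to 1000 uM clofibrate for 24 h were compared with hepatocytes exposed to 60 uM for the same time, to show what the higher dose added to the lower dose or reversed. The arrays were chosen by their labelled dose and time, with 5 arrays at 1000 uM and 5 at 60 uM out of 30 arrays in the series. A further 5 arrays with DMSO at 24 h gave the starting level, and 15 arrays of the same 3 treatments at 48 h gave a comparison in other wells. The cells were primary hepatocytes of male Sprague Dawley rats, bought frozen, plated on collagen under a Matrigel overlay and dosed on day 3 of culture. All 3 groups at 24 h had the same culture and differed in the added agent, which was 1000 uM clofibrate, 60 uM clofibrate or the vehicle DMSO, with dosing solutions in 1% DMSO. Each array was made from 1 separate culture well. The labels name separate wells but no separate animals or cell lots, so the p-values measure the spread between wells. Plated hepatocytes are outside their tissue, and their expression on day 3 is that of cells in culture.

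Clofibrate is a fibrate drug, and its acid form activates the nuclear receptor PPAR-alpha. The receptor binds DNA together with RXR at paired half-sites and raises genes for the uptake, activation and oxidation of fatty acids in peroxisomes and mitochondria. In rodent liver it is also known for peroxisome proliferation and for lowering genes of inflammation, coagulation and amino acid breakdown.

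The measure was the MAS5 signal, a background-corrected and scaled brightness per probe set. Changes are given on the log2 scale as the limma estimate ± its standard error, and a change passed where its adjusted p was below 0.05. Arrays of 1 group at 24 h correlated at 0.941 to 0.950 over probe sets, and arrays at 1000 uM correlated with arrays at 60 uM at 0.936 to 0.946. Each array had the same trimmed mean signal of 1501. The hepatocyte label held for its markers: 15 of 18 defining genes were on the array and were measured, with summed signals of 764300 to 842000 at 1000 uM and 807200 to 956200 at 60 uM. Of the 15, 5 were lower at 1000 uM and 0 were higher, on the trimmed-mean scale of the arrays. Among all genes tested 8.75% were higher and 12.8% lower, and the small marker counts that follow are to be read beside these shares. Macrophage markers summed to 25430 to 27550 at 1000 uM and 29150 to 30760 at 60 uM, and 2 of the 10 tested (the bright Cd14 and Lyz2) were lower. These 2 calls, and those of Epcam and Acta2 below, did not pass when arrays were scaled to spike-in controls. Bile duct markers summed to 7203 to 8179 at 1000 uM and 9352 to 10080 at 60 uM, with Epcam lower and Krt7 under the background floor. Most of the bile duct sum was Epcam, with means of 7551 at 1000 uM and 9494 at 60 uM. The endothelial sums were 2905 to 3361 at 1000 uM and 2274 to 2876 at 60 uM, the stellate sums 3119 to 3826 and 3745 to 4569, and the lymphoid sums 875.9 to 1249 and 580.2 to 1290, in the same order of doses. Of the 4 tested stellate markers Acta2 was lower, and Cd3d lay under the floor. The part of these other cell types in the results below was not tested, and in a mixed culture fewer cells of a type and less RNA per cell cannot be told apart.

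The upper dose step, 1000 uM against 60 uM, passed for more genes than the lower step, 60 uM against DMSO. Of 10627 genes tested, 2292 passed in the upper step (21.6%), with 930 higher (8.75%) and 1362 lower (12.8%). In the lower step 884 passed (8.32%), with 484 higher (4.55%) and 400 lower (3.76%). The 5 arrays at 1000 uM lay wholly above or below the 5 at 60 uM for 1920 genes (18.1%). The median change over all genes was -0.03 in the upper step and -0.02 in the lower step. The balance of directions rests on the scaling of the arrays. Of 18625 probe sets 3332 passed in the upper step (17.9%), with 1396 higher (7.5%) and 1936 lower (10.4%), so that 41.9% of those passing were higher. With arrays scaled to the poly-A spike-in controls instead, 1441 probe sets were higher and 540 lower, which makes 72.7% higher, and the median of all probe sets moved to 0.087 from -0.023 without this scaling. The spike-in sets averaged a log2 signal of 10.20 at 1000 uM and 10.31 at 60 uM. Changes below are relative to the equal trimmed mean of the arrays.

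The genes were sorted by which step passed and in which direction. There were 329 genes that rose in the lower step and rose further in the upper step, with median changes of 0.38 and then 0.48, and 264 that fell in both steps, with medians of -0.30 and then -0.45. A larger number passed in the upper step alone: 587 genes were higher and 1085 lower at 1000 uM than at 60 uM without passing between 60 uM and DMSO. Not passing in the lower step does not show that these genes did not respond to 60 uM. A further 142 genes rose and 122 fell in the lower step without passing in the upper step. The turned genes numbered 27, passing in both steps with opposite signs (0.254%), of which 13 rose and then fell and 14 fell and then rose. Because both steps use the 5 arrays at 60 uM, an error in those arrays pushes the steps in opposite directions.

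**Figure D1:**
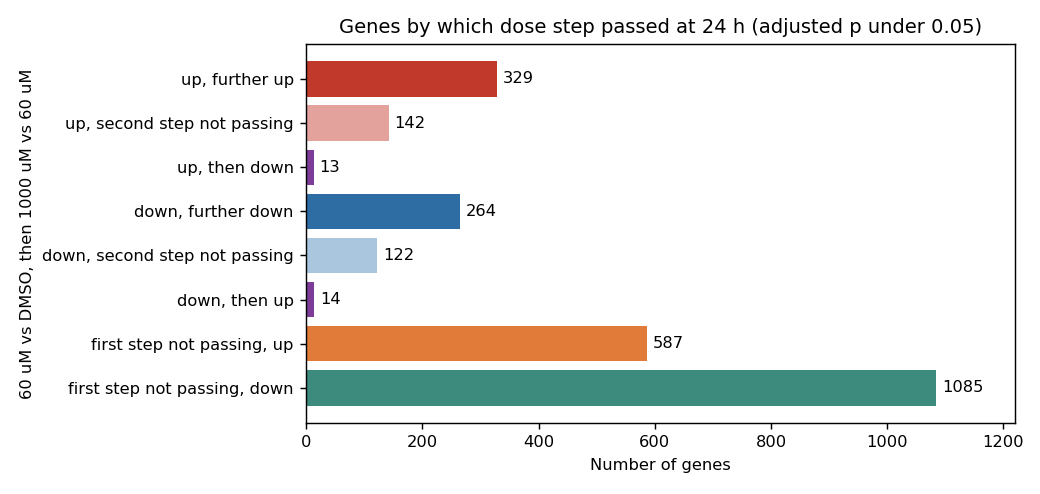
Number of genes in each class of response at 24 h. Each bar is a class by which of the steps (60 uM against DMSO, then 1000 uM against 60 uM) passed an adjusted p under 0.05 and in which direction, and the bar length is the number of genes. The longest bars are the 1085 lower and 587 higher genes that passed in the upper step alone, and the bars of turned genes hold 13 and 14.

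The size of the steps was compared directly, as the upper step minus the lower step, and 296 genes passed this test (2.79%), 121 with a higher upper step (1.14%) and 175 with a lower one (1.65%). With spike-in scaling 23 and 30 passed. Of the passing step differences printed below, those of Acsl1, Slc22a5, Pck1, Cbs, Yars1 and Mxd4 did not pass with that scaling (limma adjusted p = 0.101 to 0.615), and the list counts fell too: of the peroxisomal beta-oxidation list 0 genes had a larger and 0 a smaller upper step, of the mitochondrial list 0 and 1, of the lipid droplet and fuel switch list 5 and 0, of the ATF4 list 0 and 0, and of the bile acid list 0 and 1. Of the 68 genes at least 2-fold higher at 1000 uM than at 60 uM (0.64%), 45 also passed as higher at 60 uM than with DMSO, and for 31 the direct comparison gave a larger upper step. Of the 53 genes at least 2-fold lower (0.499%), 18 also passed as lower at 60 uM than with DMSO, and for 21 the fall was larger in the upper step by that test.

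Most genes of peroxisomal fatty acid oxidation rose again with the higher dose. Ehhadh, the bifunctional enzyme that hydrates and oxidises enoyl-CoA in peroxisomes, had signals of 47730, 43570, 47500, 48140 and 48750 at 1000 uM, against 8140, 8501, 8181, 8026 and 9598 at 60 uM. The groups did not overlap, and 1 array at 1000 uM lay below the other 4. The change was 5.56-fold (2.48 ± 0.08, limma adjusted p = 4.22e-22), beside 2.50 in the lower step, and the steps differed by -0.02 (adjusted p = 0.978). Crat, which moves short acyl groups onto carnitine, had signals of 11450, 11440, 11810, 12100 and 12330 at 1000 uM, against 4629, 4902, 4139, 4277 and 4878 at 60 uM, a rise of 1.38 ± 0.06 without overlap. Eci2, an enoyl-CoA isomerase, rose by 1.24 ± 0.04, and Hacl1, a lyase of alpha-oxidation, by 0.87. Of 16 peroxisomal beta-oxidation genes measured, 14 were higher, 1 was lower and 1 did not pass, with a median of 0.59. In the lower step 14 were higher and 0 lower, with a median of 0.65. The gene that was lower was Abcd4 (-0.51), a transporter that handles cobalamin. In the direct comparison of steps 2 of the 16 had a larger and 4 a smaller upper step.

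In mitochondria, genes that carry fatty acids in and oxidise them rose as a group. Cpt1b, a carnitine palmitoyltransferase that commits long-chain fatty acids to mitochondrial oxidation, had signals of 6882, 7102, 7093, 7460 and 7105 at 1000 uM, against 2279, 2395, 2395, 2344 and 2402 at 60 uM. All 5 arrays at 1000 uM were well above the others, a change of 3.02-fold (1.59 ± 0.07). Slc22a5, the plasma membrane carnitine transporter, rose by 1.30, and Acsl1, which activates long-chain fatty acids with CoA, by 1.06. Of 25 mitochondrial beta-oxidation genes, 22 were higher and 2 lower (median 0.42). The lower step had 22 higher and 0 lower (median 0.55). For Acsl1 the upper step was smaller than the lower one by 0.36 on the log2 scale. This difference did not pass with median centring (limma adjusted p = 0.0605), quantile normalization (0.0543) or spike-in scaling (0.522) of the arrays. The other probe set of Acsl1 changed by 1.89 in the upper step and 2.06 in the lower one, and that difference of -0.17 did not pass (adjusted p = 0.838). For Slc22a5 the upper step was larger by 0.64. Of the genes for building and dividing peroxisomes, 11 of 18 were higher. Pex11a, which elongates and divides peroxisomes, had signals of 30520, 24600, 30070, 28300 and 28160 at 1000 uM, against 16450, 15650, 15770, 15250 and 14840 at 60 uM, and changed by 0.86 ± 0.05. Of the 18, 2 were lower and 5 did not pass (median 0.27), and in the lower step 7 were higher and 0 lower (median 0.15). Pex19, an import receptor for membrane proteins, rose by 0.66 and the protease Lonp2 by 0.66. Pex16 rose by 0.87, but its other probe set changed by -0.17 (adjusted p = 0.546).

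Acot1 showed the largest rise among the passing genes whose arrays did not overlap. It encodes a cytosolic thioesterase that frees fatty acids from CoA. Its signals were 42830, 38380, 41540, 41670 and 41160 at 1000 uM, against 900.7, 1293, 808.3, 772.7 and 721.3 at 60 uM. The change was 46.8-fold (5.55 ± 0.46, adjusted p = 4.28e-11), and no array of either group came near the other group. With DMSO alone its mean log2 signal lay under the background floor, so the lower step has no measured size. The thioesterases Acot2, Acot7 and Acot3 rose by 1.48, 1.16 and 1.09. Of 17 genes of omega-hydroxylation and thioesterases, 9 were higher and 1 lower, and 7 did not pass (median 0.15). The lower step had 11 higher and 0 lower (median 0.41). The median of this list depends on how many dim members are kept: it was 0.478 with no filter on low signals and 0.808 with a filter at the 60th percentile.

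Cyp4a1, the main fatty acid omega-hydroxylase of rat liver, rose by less in the upper step. Its signals with DMSO were 7735, 5566, 6410, 5647 and 6580. At 60 uM they were 41860, 44960, 35010, 35660 and 37970. At 1000 uM they were 71720, 66670, 70750, 67880 and 73140. The 3 groups did not overlap. The upper step was 1.8-fold (0.85 ± 0.09, adjusted p = 2.02e-08), the lower step was 2.62, and their difference was -1.77 (adjusted p = 1.21e-08). The highest signal of any probe set on an array at 24 h was 95378 to 118603, and whether signals near the top of the scale are compressed was not tested. Spc24, a kinetochore subunit, had a like shape, with 1.68 in the lower step and 0.54 in the upper step (difference -1.14, adjusted p = 1.72e-07).

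**Figure D2:**
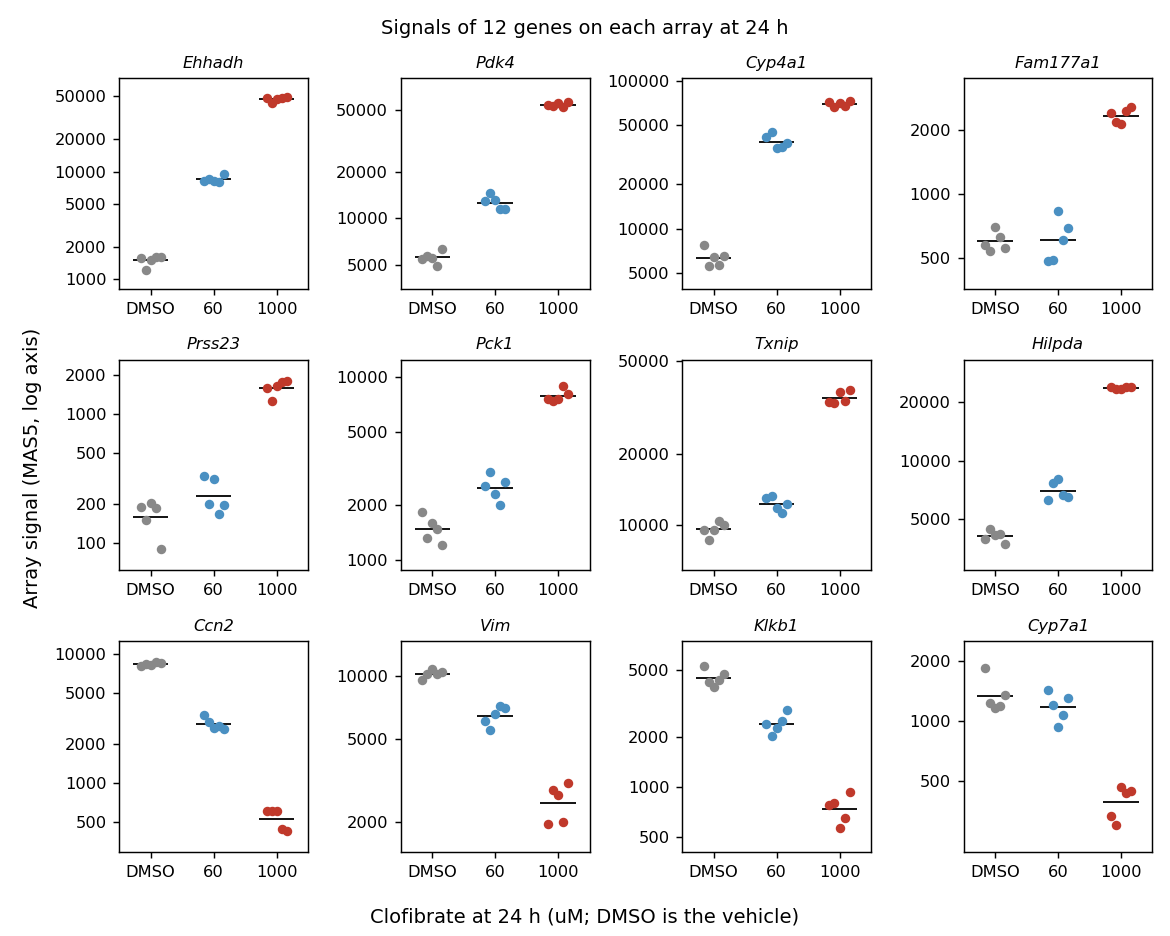
Signals of 12 genes on each of the 15 arrays at 24 h. The horizontal axis gives DMSO, 60 uM and 1000 uM clofibrate, the vertical axis is the MAS5 signal on a log axis, points are arrays and the bar is the mean of the log values. Ehhadh climbs in equal steps of 2.50 and 2.48 on the log2 scale, Cyp4a1 mostly in the lower step, and Fam177a1 in the upper step alone, while Ccn2, Vim, Klkb1 and Cyp7a1 are lower at 1000 uM than at 60 uM.

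Genes that shift hepatocytes towards fat as a fuel, and that store or release fat, rose as well, several by more in the upper step than in the lower one. Pdk4, a kinase that shuts off pyruvate dehydrogenase, had signals of 53970, 52740, 55170, 52230 and 56680 at 1000 uM, against 12840, 14490, 13040, 11390 and 11420 at 60 uM. The arrays did not overlap (4.3-fold, 2.10 ± 0.06, adjusted p = 3.55e-22). The lower step was 1.18, and the upper step exceeded it by 0.93 (adjusted p = 1.45e-06). Hilpda, an inhibitor of the lipase ATGL on lipid droplets, had signals of 23980, 23430, 23360, 23890 and 24110 at 1000 uM, against 6320, 7680, 8073, 6702 and 6506 at 60 uM. The arrays at 1000 uM lay close together and apart from those at 60 uM (3.38-fold), and the upper step was larger by 0.98 (adjusted p = 8.8e-06). Txnip, a thioredoxin-binding protein that restrains glucose uptake, had signals of 33520, 33050, 36720, 33810 and 37510 at 1000 uM, against 13040, 13250, 11790, 11180 and 12260 at 60 uM. The groups were apart, with a change of 2.84-fold (1.51 ± 0.06) beside 0.36 in the lower step (difference 1.15, adjusted p = 6.55e-09).

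Fabp3, the heart-type fatty acid binding protein, had signals of 2717, 2395, 2984, 2485 and 2455 at 1000 uM, against 365.4, 397.9, 88.02, 486.7 and 458.8 at 60 uM. All arrays at 1000 uM were higher (8.39-fold, 3.07 ± 0.39, adjusted p = 2.4e-07), and 1 array at 60 uM lay far below the other 4. Its steps did not differ by a passing amount (2.14, adjusted p = 0.0995). Over the list of lipid droplet, fuel switch and other PPAR-alpha targets, 26 of 36 genes were higher and 3 lower, with a median of 0.77. The lower step had 24 higher and 3 lower, with a median of 0.44. In the direct comparison 8 of the 36 had a larger and 1 a smaller upper step.

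Genes of glucose output and glycogen moved in both directions. Pck1, the cytosolic enzyme that commits oxaloacetate to gluconeogenesis, had signals of 7522, 7404, 7514, 8939 and 8085 at 1000 uM, against 2542, 3001, 2298, 2002 and 2652 at 60 uM. The groups were apart (3.18-fold, 1.67 ± 0.11), and the upper step exceeded the lower one by 0.92 (adjusted p = 0.00487). Gys2, the liver glycogen synthase, had signals of 16540, 16330, 16910, 18100 and 18560 at 1000 uM, against 9834, 10270, 10310, 9923 and 11930 at 60 uM, a rise of 1.66-fold (0.73 ± 0.05) without overlap. The glucose transporter Slc2a2 fell by 0.78 and the liver pyruvate kinase gene Pklr by 0.66, while a dimmer probe set of Pklr changed by -3.03 (adjusted p = 7.85e-11). Of 18 genes in this list 7 were higher and 5 lower, with a median of 0.05. In the lower step 6 were higher and 4 lower. Beside these counts, 8.75% of all genes tested were higher and 12.8% lower in the upper step, and 4.55% and 3.76% in the lower step.

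The promoters of Fabp1 and Gys2 are shown because, among the lipid and glucose lists, they hold a match to the paired half-site that PPAR-alpha and RXR bind. Fabp1, the liver fatty acid binding protein, had signals of 41670, 34730, 39690, 39740 and 36040 at 1000 uM, against 18540, 17800, 17240, 15820 and 15930 at 60 uM. The groups did not overlap, and the steps were nearly equal, at 1.17 ± 0.06 and 1.14. Promoters of 250 bases before to 50 after the gene start, taken from RefSeq on GRCr8, were searched on both strands for the half-site AGGNCA repeated in the same direction after 1 spacer base, and 139 of 33469 held it (0.415%). The same repeat of the stricter half-site AGGTCA was in 18 (0.0538%). Among the listed genes the AGGNCA repeat was in 1 of 37 promoters of the lipid droplet and fuel switch list (2.7%). It was in 1 of 17 of the gluconeogenesis list (5.88%), and in 0 of 15 peroxisomal and 0 of 21 mitochondrial beta-oxidation promoters. Other lists held it too, with 1 of 14 hepatocyte secreted and enzyme marker promoters (7.14%). It was also in 1 of 32 of the ATF4 list (3.12%) and 1 of 39 of the urea cycle list (2.56%). The AGGTCA repeat was in 0 promoters of these lists. A match is a description of these letters, not a site of binding, and the regions further from the start were not searched. The Fabp1 promoter lies at chr4:104749090-104749389 on the + strand and the Gys2 promoter at chr4:177137187-177137486 on the - strand. Each is printed 5′ to 3′ along the gene, and capitals mark the match, 77 to 65 bases before the Fabp1 start (read on the opposite strand) and 80 to 68 bases before the Gys2 start.
Fabp1: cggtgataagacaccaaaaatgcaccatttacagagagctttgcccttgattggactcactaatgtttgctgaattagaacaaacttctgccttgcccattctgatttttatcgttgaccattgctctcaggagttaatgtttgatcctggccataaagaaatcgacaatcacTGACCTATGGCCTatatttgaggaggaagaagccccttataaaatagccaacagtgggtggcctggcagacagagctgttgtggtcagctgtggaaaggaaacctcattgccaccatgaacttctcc
Gys2: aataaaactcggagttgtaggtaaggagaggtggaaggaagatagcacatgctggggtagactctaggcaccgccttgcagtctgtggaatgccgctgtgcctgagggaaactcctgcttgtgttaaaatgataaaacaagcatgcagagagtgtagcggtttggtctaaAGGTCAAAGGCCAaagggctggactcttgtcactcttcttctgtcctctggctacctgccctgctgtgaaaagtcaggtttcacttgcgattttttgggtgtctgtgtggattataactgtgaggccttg

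Several of the largest rises were of genes outside the fatty acid lists. Prss23, a serine protease, had signals of 1596, 1274, 1640, 1761 and 1814 at 1000 uM, against 331.3, 201.9, 313.2, 168 and 196.6 at 60 uM. The arrays were apart (6.88-fold, 2.78 ± 0.19, adjusted p = 3.37e-13), while the lower step of 0.56 did not pass (adjusted p = 0.0717). Fam177a1, a gene of little known function, had signals of 2385, 2161, 2113, 2436 and 2559 at 1000 uM, against 483.9, 486.3, 824.8, 606.6 and 688.1 at 60 uM. It changed by 3.84-fold in the upper step and by 0.02 on the log2 scale in the lower step (adjusted p = 0.963), with a difference of 1.92 (adjusted p = 3.63e-07). Cyp17a1, the steroid 17-alpha-hydroxylase, had signals of 1373, 1385, 1386, 1612 and 1654 at 1000 uM, against 407.5, 535.5, 454, 496.1 and 635.8 at 60 uM. All arrays at 1000 uM were higher (1.56 ± 0.11), and the upper step exceeded the lower one by 1.18 (adjusted p = 0.000301). The phosphate transporter Slc34a2 rose by 1.78 ± 0.13, and its upper step was larger by 1.22 (adjusted p = 0.000868). For Qpct, Cd300a and Lrrc39 the step difference did not pass. The glutaminyl cyclase Qpct rose by 1.62 ± 0.20 (difference 1.20, adjusted p = 0.0678). The receptor gene Cd300a rose by 1.74 ± 0.40 at signals of 434.7 to 544.4 at 1000 uM and 55.08 to 221.5 at 60 uM (difference 1.98, adjusted p = 0.164). Lrrc39 rose by 1.51 ± 0.10 (difference 0.62, adjusted p = 0.0671).

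Fat synthesis and cholesterol genes were moved less evenly. Dgat1, which makes triglyceride from diacylglycerol, had signals of 9088, 8928, 9475, 10490 and 8978 at 1000 uM, against 4470, 4713, 4402, 4111 and 4233 at 60 uM, a rise of 2.14-fold without overlap. The elongase Elovl6 rose by 1.03, malic enzyme Me1 by 0.88 and the desaturase Fads1 by 0.80. Of 22 lipogenesis and desaturation genes, 10 were higher and 5 lower (median 0.19), against 7 and 4 in the lower step (median 0.10). Of 21 cholesterol synthesis and uptake genes, 6 were higher and 2 lower (median -0.05, and 0.064 with spike-in scaling), with Scarb1, the HDL receptor, rising by 0.98. Of 7 ketone body genes 3 were higher and 2 lower, with the thiolase Acat1 rising by 1.00. Over all genes tested the shares were 8.75% higher and 12.8% lower in the upper step, and 4.55% and 3.76% in the lower step. Small counts near those shares, such as the 2 lower cholesterol genes, are no result about a list.

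Of the genes of the integrated stress response, 14 rose in the upper step. In this response ATF4, translated when protein synthesis is slowed, raises genes of amino acid supply, and it can also raise Fgf21 and Ddit3. Ddit3, the stress factor CHOP, had signals of 4464, 4735, 4367, 4400 and 4840 at 1000 uM, against 2991, 3045, 3366, 3250 and 2912 at 60 uM. The groups did not overlap (1.47-fold, 0.55 ± 0.13, adjusted p = 0.00146), the lower step was 0.06 (adjusted p = 0.865), and the steps differed by 0.49 (adjusted p = 0.34). Vldlr, the very low density lipoprotein receptor, had signals of 10650, 13800, 13440, 15940 and 13440 at 1000 uM, against 7699, 7719, 8774, 7591 and 7939 at 60 uM, a rise of 0.75 ± 0.10 with no overlap. Cbs, the enzyme that takes homocysteine to cystathionine, rose by 0.62 ± 0.12. It was the gene of this list with the largest gap between steps, 0.87 (adjusted p = 0.0139). Of 34 ATF4 and stress response genes measured, 14 were higher and 0 lower (median 0.20). In the lower step 0 were higher and 2 lower (median -0.04), and in the direct comparison 3 had a larger upper step. Of 19 cytosolic aminoacyl-tRNA synthetases, which charge tRNAs and share this control, 3 were higher and 1 lower (median 0.05), and 0 passed in the lower step.

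The promoters of Fgf21 and Yars1 are shown because each holds a match to the composite element that ATF4 and C/EBP factors bind. Yars1 had the largest rise of the synthetases, most of which did not pass. Fgf21, a liver hormone of fasting and stress that PPAR-alpha also raises, had signals of 5721, 5051, 5422, 4867 and 4552 at 1000 uM, against 3317, 3071, 2842, 3296 and 3180 at 60 uM. The groups did not overlap (1.63-fold, 0.70 ± 0.15, adjusted p = 0.00091), and the steps differed by 0.38 (adjusted p = 0.637). Yars1, the tyrosyl-tRNA synthetase, had signals of 9374, 10530, 10930, 9757 and 10070 at 1000 uM, against 8119, 8400, 7430, 7266 and 7158 at 60 uM. Its arrays were also apart, with a change of 0.40 ± 0.07 (adjusted p = 2.02e-05) and a step difference of 0.46 (adjusted p = 0.0195, and 0.0743 with median centring). The letters TGATGNAAN, searched on both strands, were in 1328 of 33469 promoters (3.97%), in 5 of 32 of the ATF4 list (15.6%) and in 7 of 17 of the synthetases (41.2%). The ATF4 list was drawn from known ATF4 targets, and the synthetases were listed as a gene family that shares ATF4 control. The match says nothing of binding here. The promoters are from RefSeq on GRCr8, Fgf21 at chr1:105221327-105221626 on the - strand and Yars1 at chr5:146819913-146820212 on the + strand, 5′ to 3′ along the gene. Capitals mark the match, at 144 to 136 bases before the Fgf21 start (on the opposite strand) and at bases 39 to 47 after the Yars1 start.
Fgf21: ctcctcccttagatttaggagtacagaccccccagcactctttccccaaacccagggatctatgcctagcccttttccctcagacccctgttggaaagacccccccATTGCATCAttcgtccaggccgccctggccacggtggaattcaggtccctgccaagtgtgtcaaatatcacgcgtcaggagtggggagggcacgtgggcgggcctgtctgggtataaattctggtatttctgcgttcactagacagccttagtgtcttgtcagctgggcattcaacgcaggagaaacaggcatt
Yars1: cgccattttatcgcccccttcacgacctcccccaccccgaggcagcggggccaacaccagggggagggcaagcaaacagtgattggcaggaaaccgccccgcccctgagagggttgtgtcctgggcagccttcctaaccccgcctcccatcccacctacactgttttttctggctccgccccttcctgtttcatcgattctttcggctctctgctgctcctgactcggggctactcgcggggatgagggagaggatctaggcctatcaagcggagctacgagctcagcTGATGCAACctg

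At 48 h most of the ATF4 genes that passed were lower at the higher dose. In the comparison of the same doses at 48 h, 4 of the 34 ATF4 genes were higher and 13 lower (median -0.14), and 0 of the 19 synthetases were higher and 8 lower (median -0.17). At 48 h 3236 genes passed in all (30.5%), with 1265 higher (11.9%) and 1971 lower (18.5%). The dose difference at 48 h minus that at 24 h passed for 444 genes (4.18%), 245 above 0 (2.31%) and 199 below 0 (1.87%). Among them were 12 of the 34 ATF4 genes and 6 of the 19 synthetases, all of them below 0. With spike-in scaling 25 genes in all lay below 0 by this test, with 2 of the ATF4 genes and 0 of the synthetases among them, while the list medians of the difference stayed at -0.345 and -0.22. At 48 h 4 ATF4 genes were then higher and 6 lower, and 0 synthetases higher and 1 lower. Yars1 was at -0.17 at 48 h, a difference between times of -0.57 (adjusted p = 0.000261, and 0.142 with spike-in scaling). Mthfd2, a mitochondrial folate enzyme and ATF4 target, had a dose change of -0.88 ± 0.14 at 48 h and of 0.19 at 24 h (adjusted p = 0.422), and the times differed by -1.07 (adjusted p = 0.000825). Fgf21 was at 0.06 at 48 h, and its difference between times did not pass (-0.64, adjusted p = 0.114).

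**Figure D3:**
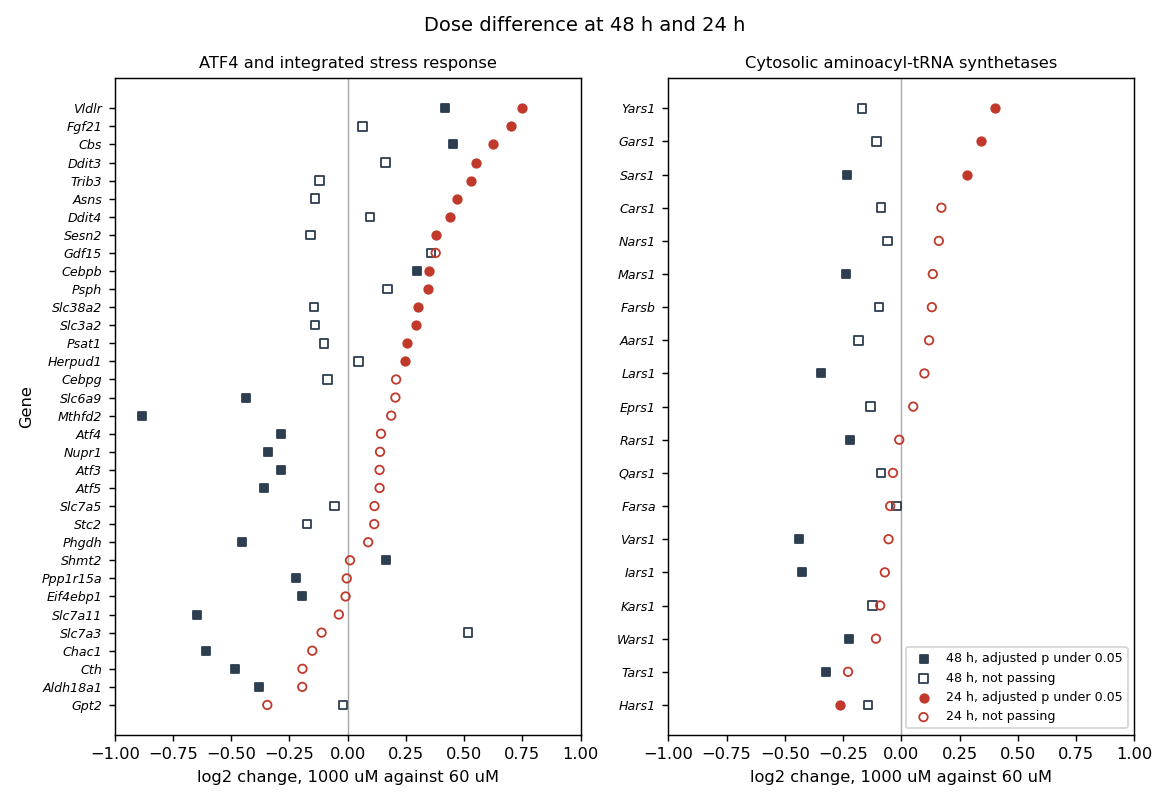
Dose difference of each ATF4 list gene and each cytosolic aminoacyl-tRNA synthetase at 48 h (squares) and 24 h (circles). The horizontal axis is the log2 change of 1000 uM against 60 uM, and filled symbols passed an adjusted p under 0.05. At 48 h the filled symbols lie left of 0 for 13 ATF4 genes and 8 synthetases, with 4 ATF4 genes right of 0, and at 24 h they lie right of 0 for 14 ATF4 genes and 3 synthetases, with 1 synthetase left of 0.

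The other stress programmes held fewer rises or moved both ways. Of 26 ER chaperone and unfolded protein genes 3 were higher and 11 lower (median -0.14), with the factor Xbp1 falling by 0.46 and the oxidase Ero1b by 0.53, while with spike-in scaling 3 of the 26 were lower. Of 28 NRF2 targets 3 were higher and 9 lower, with a median of -0.06 that turned to 0.047 with spike-in scaling. Hmox1, the haem-degrading enzyme, had signals of 24600, 25290, 27880, 25950 and 27910 at 1000 uM, against 38310, 33590, 38480, 36140 and 37560 at 60 uM. Its groups did not overlap (-0.48 ± 0.05), and its steps differed by -0.64 (adjusted p = 2.39e-05). Of 17 heat shock genes 4 were higher and 3 lower, of 13 p53 targets 3 and 4, and of 31 proteasome genes 2 and 0. Beside these counts, 8.75% of all genes tested were higher and 12.8% lower, and small counts near those shares are no result about a list. Of 20 targets of the drug-sensing receptors CAR and PXR 4 were higher and 3 lower, and of 6 targets of the aryl hydrocarbon receptor 0 and 1, Cyp1a1 falling by 0.31 but not passing with spike-in scaling. Of 20 cell cycle genes Spc24 alone passed.

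The largest fall among passing genes without overlap was that of Ccn2, a secreted matricellular protein and a target of YAP with TEAD factors and of TGF-beta. Its signals with DMSO were 8058, 8329, 8192, 8642 and 8484. At 60 uM they were 3392, 2961, 2665, 2793 and 2633. At 1000 uM they were 607.2, 610, 615.5, 443.8 and 429. No groups overlapped. The upper step was 5.39-fold lower (-2.43 ± 0.10, adjusted p = 5.31e-19) and exceeded the lower step of -1.54 by 0.89 on the log2 scale (adjusted p = 0.00125). Vim, the intermediate filament vimentin, had signals of 1969, 2850, 2706, 1998 and 3080 at 1000 uM, against 6053, 5483, 6556, 7146 and 6999 at 60 uM, which is 2.59-fold lower without overlap. The related protein gene Ccn1 fell by 1.06 ± 0.18, Tagln2, an actin-binding protein, by 0.73, and smooth muscle actin Acta2 by 0.49. Of 35 cytoskeleton and YAP or TGF-beta target genes, 0 were higher and 22 lower (median -0.29), and with spike-in scaling 12 were lower (median -0.184). In the lower step 0 were higher and 8 lower (median -0.18).

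The Ccn2 promoter is shown because it holds 3 copies of the letters that TEAD factors read, CATTCC, here on the opposite strand as GGAATG. These letters were in 4749 of 33469 promoters on either strand (14.2%), in 13 of 32 of the cytoskeleton and YAP list (40.6%) and in 3 of 13 of the largest falls (23.1%). The shares of other lists ranged widely, so a high share is not particular to the YAP list. They were 6 of 17 for NF-kB and interleukin genes (35.3%), 12 of 39 for the urea cycle list (30.8%) and 8 of 29 for complement and coagulation (27.6%). Peroxisomal beta-oxidation had 0 of 15 and cholesterol synthesis and uptake 0 of 16. The YAP list holds known YAP targets, so its share is a description. The sequence is from RefSeq on GRCr8, chr1:22624565-22624864 on the - strand, 5′ to 3′ along the gene, and capitals mark the copies at 166 to 161, 101 to 96 and 92 to 87 bases before the start.
Ccn2: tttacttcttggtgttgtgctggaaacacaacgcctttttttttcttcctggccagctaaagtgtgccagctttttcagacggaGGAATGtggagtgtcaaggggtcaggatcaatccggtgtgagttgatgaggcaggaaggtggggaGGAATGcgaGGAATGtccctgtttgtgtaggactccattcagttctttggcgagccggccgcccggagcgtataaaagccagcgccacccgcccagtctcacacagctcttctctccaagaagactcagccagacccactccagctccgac

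Among inflammatory and plasma protein genes, more were lower than higher at the higher dose, and many did not pass. Steap4, a metal reductase that inflammation raises, had signals of 2352, 2295, 2027, 2125 and 1750 at 1000 uM, against 8252, 8570, 8627, 8096 and 7651 at 60 uM. The groups were apart (3.92-fold lower, -1.97 ± 0.11), and the upper step exceeded the lower by 1.11 on the log2 scale (adjusted p = 0.000281). Cxcl1, a neutrophil-attracting chemokine, had signals of 622.5, 465.9, 690.4, 797 and 332.7 at 1000 uM, against 2018, 1652, 1770, 1436 and 1135 at 60 uM, 2.83-fold lower and without overlap. Tnfaip3, an inhibitor of NF-kB that NF-kB itself raises, fell by 0.82 ± 0.08. Of 21 NF-kB and interleukin genes 0 were higher and 7 lower (median -0.25), against 0 and 1 in the lower step (median -0.07). The summed macrophage markers were lower at 1000 uM by the values given above, mostly through Cd14 (mean 14880 against 17380) and Lyz2 (5080 against 6187). Dimmer macrophage markers moved both ways, with Cd68 at 1686 against 1631 and C1qc at 685.5 against 796.6. The part of macrophages in the falls of these inflammatory genes was not tested.

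Klkb1, the liver gene of plasma prekallikrein, had signals of 779.9, 796.7, 570.5, 648.6 and 933.6 at 1000 uM, against 2369, 2009, 2250, 2502 and 2904 at 60 uM. The groups did not overlap (3.25-fold lower, -1.70 ± 0.14), and the lower step was -0.92. C1s, a protease of the classical complement pathway, had signals of 3799, 3756, 4138, 4172 and 3976 at 1000 uM, against 7155, 7304, 7213, 7673 and 7264 at 60 uM, 1.85-fold lower and tight in both groups. Its partner C1r and coagulation factor F5 each fell by 0.71. Kng2l1, a kininogen gene, fell by 1.37 ± 0.07. Of 35 complement and coagulation genes 1 was higher (Cfd, complement factor D, 0.46) and 19 lower, with a median of -0.22, against 0 and 7 in the lower step (median -0.09). Of 22 acute phase genes 0 were higher and 11 lower (median -0.15), against 0 and 8 in the lower step (median -0.19), with fibronectin Fn1 falling by 0.84 and the receptor Il6r by 0.71. With spike-in scaling 6 complement and coagulation genes and 5 acute phase genes were lower. Among 17 apolipoprotein and assembly genes 1 was higher and 3 lower, beside 8.75% and 12.8% of all genes. Apoa5, an activator of triglyceride clearance, fell by 0.89 ± 0.07.

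Bile acid synthesis and transport genes were lower more often than higher in the upper step. Cyp7a1, whose enzyme sets the pace of classical bile acid formation, had signals of 331.8, 299.4, 464.2, 430.3 and 443.2 at 1000 uM, against 1419, 1202, 926.7, 1074 and 1299 at 60 uM. The groups were apart (3.02-fold lower, -1.59 ± 0.16, adjusted p = 2.99e-09). The lower step was -0.18 (adjusted p = 0.641), and the steps differed by -1.41 (adjusted p = 0.00238). Slc10a1, the bile acid uptake transporter NTCP, had signals of 5339, 4445, 4203, 5127 and 5491 at 1000 uM, against 6976, 6866, 6591, 7027 and 7878 at 60 uM, and fell by 0.53 with no overlap. At 48 h it was higher at 1000 uM (0.30), and the times differed by 0.83 (adjusted p = 2.86e-06). The phospholipid exporter Abcb4 fell by 0.90 and the conjugate exporter Abcc2 by 0.71, while the sterol exporter Abcg5 rose by 0.81 and the bile acid receptor gene Nr1h4 by 0.71. Of 24 genes of this list 5 were higher and 12 lower (median -0.29), and with spike-in scaling 5 were higher and 5 lower. The lower step had 6 higher and 4 lower (median 0.01), and 5 had a lower and 0 a higher upper step in the direct comparison.

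Genes of the urea cycle and amino acid breakdown moved both ways, with more lower than higher. Otc, the mitochondrial urea cycle enzyme ornithine transcarbamylase, had signals of 1013, 697.3, 1080, 793.6 and 1034 at 1000 uM, against 1847, 1643, 1721, 1675 and 1901 at 60 uM. The groups did not overlap (1.93-fold lower, -0.95 ± 0.12), the lower step was 0.16 and did not pass, and the steps differed by -1.10 (adjusted p = 0.000993). Kmo, a hydroxylase of tryptophan breakdown, fell by 1.06 ± 0.12 and the proline oxidase Prodh by 1.01. Uroc1, an enzyme of histidine breakdown, rose by 0.77. Of 45 genes 9 were higher and 18 lower, with a median of -0.08 that turned to 0.027 with spike-in scaling, where 10 were higher and 10 lower. In the lower step 8 were higher and 7 lower. At 48 h 17 were higher and 13 lower, and the difference between times lay above 0 for 13 and below 0 for 2, against 2 and 0 with spike-in scaling. Otc was at -0.09 at 48 h (adjusted p = 0.655), a difference of 0.86 between the times (adjusted p = 0.00149). Oat, which converts ornithine to glutamate semialdehyde, rose by 1.75 at 48 h and by 0.64 at 24 h, and the times differed by 1.11 (adjusted p = 8.6e-07).

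**Figure D4:**
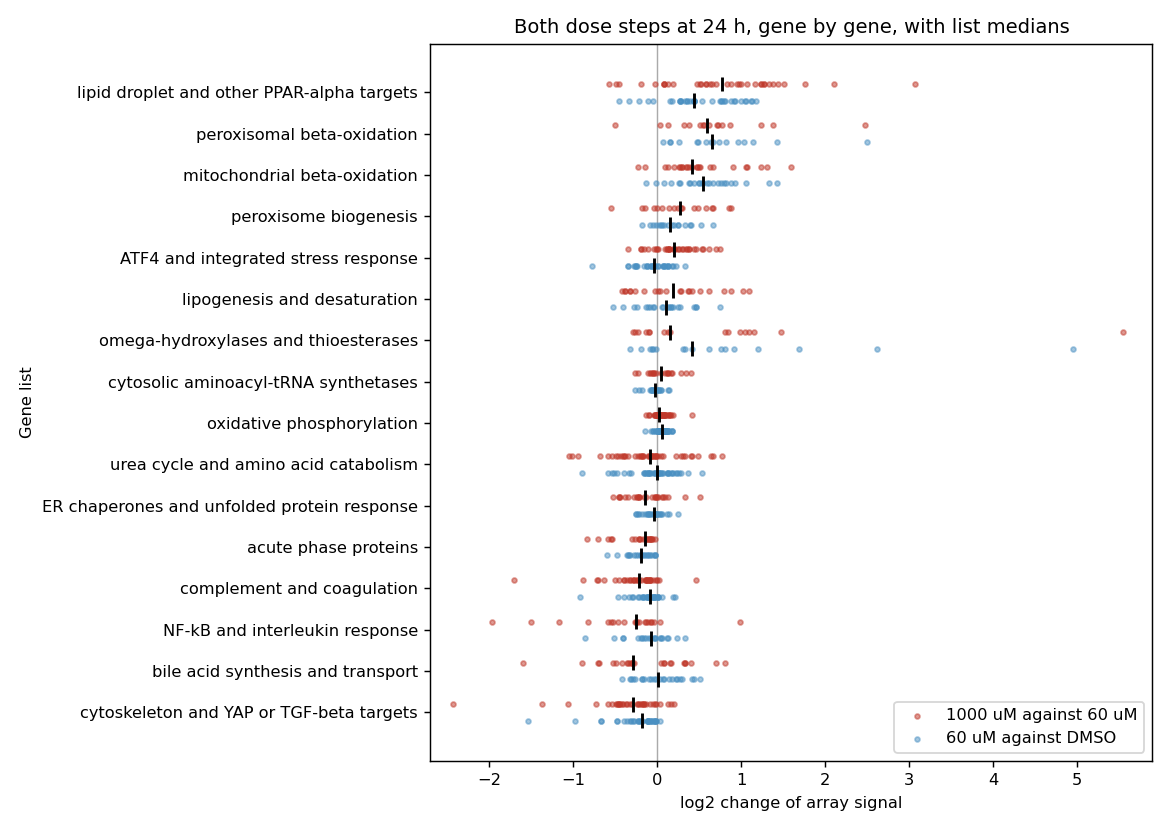
Changes of the members of 16 gene lists in the steps at 24 h. The horizontal axis is the log2 change, red points are 1000 uM against 60 uM, blue points below them are 60 uM against DMSO, and black bars are list medians. The far right blue point is the fitted value of Acot1, whose DMSO signals lay under the floor. The medians of the fatty acid lists lie right of 0 in both steps, the ATF4 list lies right of 0 in the upper step (0.20) and near 0 in the lower (-0.04), and the cytoskeleton and complement lists lie left of 0.

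Further large falls came from genes of several kinds. The phosphate transporter gene Slc17a2 fell by 1.82 ± 0.30 at signals of 58.28 to 258.3 at 1000 uM and 281.3 to 592.7 at 60 uM. Map2k6, a kinase that activates p38, fell by 2.01 ± 0.38 at signals of 43.92 to 275.7 at 1000 uM and 299.6 to 518.4 at 60 uM. The transporter gene Abca8a fell by 1.72 ± 0.22, Lurap1l by 1.45 ± 0.07 and the glucuronosyltransferase Ugt2b1 by 1.02 ± 0.08. Fam149a fell by 1.50 ± 0.16, and its other probe set changed by -0.67 without passing (adjusted p = 0.0839). Mxd4, a partner of MAX that opposes MYC, had signals of 308.6, 251.8, 348.3, 302.6 and 297.1 at 1000 uM, against 673, 633.6, 809.8, 804.7 and 579.3 at 60 uM, and its groups did not overlap. It fell by 1.21 in the upper step and changed by 0.03 in the lower step, a difference of -1.24 (adjusted p = 0.022).

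The lower step's largest changes that did not pass in the upper step were those of Sptb (-1.66), Piezo1 (1.41), Serpina7 (1.15), Hspb7 (1.15) and Sowahb (-1.06). Sowahb had signals of 1425, 1634, 1819, 2155 and 1627 at 1000 uM, against 1420, 1284, 1539, 1778 and 1544 at 60 uM. These groups overlapped (0.19 ± 0.15, adjusted p = 0.456), and its steps differed by 1.25 (adjusted p = 0.00344). For Serpina7, the thyroxine-binding globulin gene, the upper step was 0.24 (adjusted p = 0.191), and for Piezo1, a mechanically gated channel, it was 0.71 (adjusted p = 0.274), so that neither a further rise nor its absence was shown.

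Few genes turned between the steps. Of the 27 turned genes, 24 did not pass between 1000 uM and DMSO (33.9% of all genes did), 16 had 1000 uM arrays that did not overlap those at 60 uM, and 26 passed the direct comparison of the steps. Since a turned gene must pass in both steps with opposite signs, each of these counts is partly set by the choice. Sult2a6, a bile acid and steroid sulfotransferase, had signals with DMSO of 629.8, 347.3, 319, 379.3 and 414.8. At 60 uM they were 804.5, 766.7, 616.8, 751.1 and 849.7. At 1000 uM they were 452.8, 377.9, 335, 611.8 and 427.3. The arrays at 60 uM lay above those at 1000 uM and overlapped DMSO through 1 DMSO array. The lower step was 0.89 and the upper step -0.80 (adjusted p = 0.00226), and Sult2a6 was the gene that turned in all 25 settings tried. Amn, which anchors the cubilin receptor, had signals of 389.7, 478.7, 489.1, 719.4 and 270.8 at 1000 uM, against 282.8, 166.9, 109.2, 117.3 and 101.4 at 60 uM. These groups overlapped at their edge, with a lower step of -1.73 and an upper step of 1.64. Adra2c, an alpha-adrenergic receptor, had steps of -1.16 and 1.12, and these 2 genes were the turned ones with both steps at least 2-fold. At 48 h Amn rose in the lower step (1.29, limma adjusted p = 0.043) and its upper step did not pass (-0.29, adjusted p = 0.684). Adra2c passed in neither step at 48 h. Sult2a6 rose again in the lower step at 48 h (0.93), but its upper step was -0.04 (limma adjusted p = 0.909).

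Bcar3, an adaptor of Cas signalling, had signals of 1584, 1846, 1644, 1710 and 1696 at 1000 uM, against 1119, 1033, 1159, 1175 and 1352 at 60 uM. Its groups were apart, with steps of -0.33 and then 0.54 (adjusted p = 2.66e-05). At 48 h, 22 genes turned (0.207%), and 2 of the 27 turned again in the same shape, Bcar3 and Gypc. Of the 27, the upper step passed at 48 h in the same direction for 5 and in the opposite direction for 5. Scaling mattered most for this count: 5 genes turned with spike-in scaling and 17 with median centring. Zc3h6 turned in 6 of the 25 settings. Other probe sets of the turned genes C19h1orf198, Cstf3, Klf15 and Smap2 passed in neither step (limma adjusted p = 0.367 to 0.778 in the upper step).

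**Figure D5:**
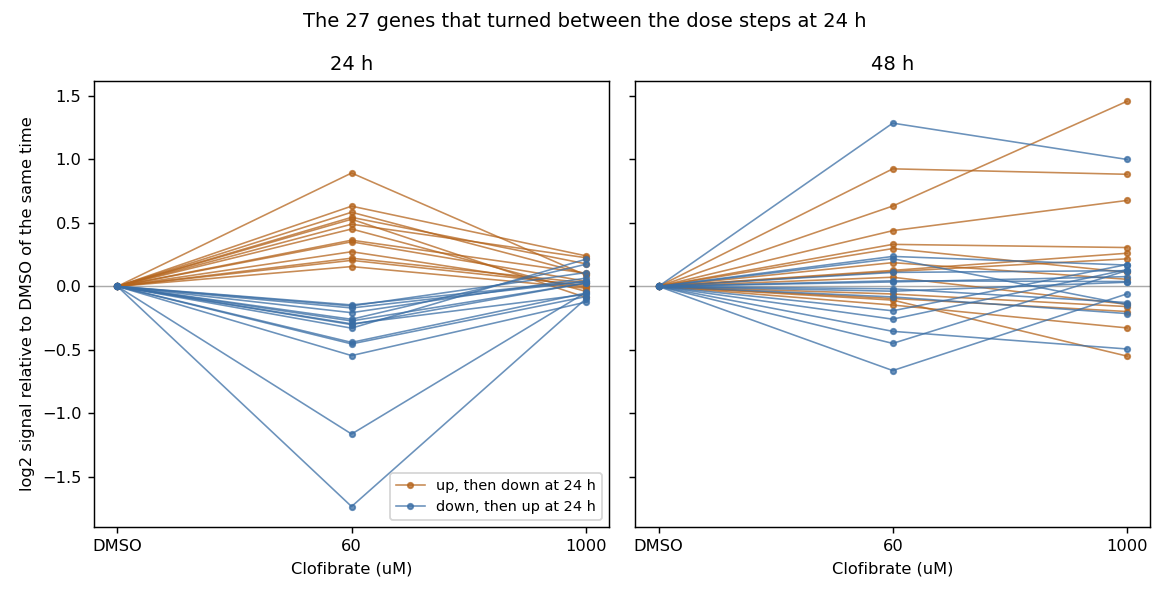
Log2 signal of the 27 turned genes relative to DMSO of the same time, at 24 h (left) and 48 h (right). The horizontal axis gives DMSO, 60 uM and 1000 uM, each line is a gene, brown lines rose and then fell at 24 h and blue lines fell and then rose. At 24 h the lines turn back at 1000 uM, as the choice of these genes requires, and at 48 h only 2 keep a passing turn of the same shape.

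The upper step was largely repeated in the separate wells harvested at 48 h. Of the 930 genes higher at 24 h, 684 were higher at 48 h (73.5% of the 930 and 54.1% of the 1265 at 48 h), and 15 were lower. Of the 1362 lower genes, 962 were lower at 48 h (70.6% of the 1362 and 48.8% of the 1971), and 16 were higher. Of the 329 genes that rose in both steps, 322 were higher at 1000 uM at 48 h and 0 lower. Of the 264 that fell in both steps, 251 were lower and 0 higher. For the genes at least 2-fold higher at 24 h, 63 of 68 were higher at 48 h, and for the 2-fold lower genes 43 of 53 were lower, with 0 opposite in either set. Prss23 had a change of 4.37 at 48 h, which exceeded that at 24 h by 1.59 (adjusted p = 0.000356). Sult1c3, a sulfotransferase, changed by 2.45 at 48 h beside 1.22 at 24 h.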

How the data were processed

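RNA of 30 hepatocyte cultures, 5 for each of 3 treatments and 2 times, was measured on Affymetrix rat arrays. The deposited values are signal intensities summarised and scaled by the authors with MAS5, per the submitters' processing notes, and every array has a 2% trimmed mean of 1501. Here the values were taken to log2. Leaving out controls, 31042 probe sets remained, and the dimmest by mean log2 signal were dropped up to the 40th percentile (8.00, a signal of 255), which kept 18625. A limma 3.58.1 model (R 4.3.3) with a mean for each of the 6 groups was fitted over all 30 arrays with an intensity trend, and p-values were adjusted by Benjamini-Hochberg over the kept probe sets. Each of 10627 genes is given by its brightest kept probe set. Gene names come from the platform annotation, in which 20826 probe sets have 1 symbol, 436 have several and 9780 have none. Of the 20826, 20758 were matched to current names through the gene identifier and 66 kept the platform symbol, and 1 symbol changed.

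Named genes are the 15 largest rises and falls without overlap, 10 turned genes of each shape, 5 levelled genes, up to 4 members of each of 37 lists, and the 5 largest each way for the comparison of steps and of times. Fabp1, Abcd4, Cfd and Gypc lie outside this rule and were picked with their values in view. The members and lists were chosen with earlier results of these data known. The background floor is the level of the brightest TrpnX control set, which detects a bacterial sequence that rat RNA lacks. The script was tested on simulated data. Array precision is limited by the number of arrays. Alternatives were other scalings, filters, an offset of 32, other arrays in the fit, no trend, other probe sets, leaving out each array and, chosen after seeing the data, sets of running numbers as a block.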

Additional observations from a re-analysis of the deposited data

Results flagged for a closer look

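In 116 groups of 5 arrays over 58 named genes, 5 held an array far from the other 4 by Dixon's test, where chance gives about 1 in 20. They were Fabp3 with 88.02 on 1 array at 60 uM (others 365.4 to 486.7), Ehhadh with 43570 on 1 array at 1000 uM (others 47500 to 48750), Fam149a with 202.2 at 1000 uM (others 343.8 to 381.9), Smap2 with 1721 at 60 uM (others 1521 to 1571) and Piezo1 with 81.74 at 60 uM (others 441 to 560).

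The change of 1000 uM against 60 uM differed between 48 h and 24 h for 444 of all 10627 genes (4.18%) by limma's test of that difference. Of the 19 given here, 10 were named for having the largest such differences, so the count itself is no result. Values are given as 48 h minus 24 h on the log2 scale. It was negative for Zfp185 (-1.35), Tmco4 (-1.17), Tdrd3 (-1.11), Rragd (-1.10), Mthfd2 (-1.07), Arl15 (-0.73), Kng2l1 (-0.63), Pck1 (-0.59), Cstf3 (-0.39) and Txnip (-0.33). It was positive for Slc27a5 (0.41), Hgd (0.50), Cyp17a1 (0.66), Poteml2 (1.09), Oat (1.11), Dhrs7l1 (1.15), Sult1c3 (1.22), Lrrc45 (1.30) and Prss23 (1.59). With spike-in scaling those of Zfp185, Arl15, Pck1, Cstf3, Txnip, Slc27a5, Hgd and Cyp17a1 did not pass. Tmco4 and Rragd, a GTPase of nutrient sensing, passed with opposite signs, being lower at 1000 uM at 48 h (-0.46 and -0.47) and higher at 24 h (0.71 and 0.63).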

How the results depend on the processing

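The scaling of the arrays moved the counts most. With spike-in scaling, genes lower at 24 h numbered 385 instead of 1362 (probe sets 540 instead of 1936) and at 48 h 630 instead of 1971. The upper step was then larger for 23 and smaller for 30 genes (121 and 175), the time difference lay above 0 for 24 and below 0 for 25 (245 and 199), and 5 genes turned (27). With median centring the upper step was larger for 70 genes, the time difference lay above 0 for 153 and below 0 for 106, and 17 genes turned. Leaving out 1 array at a time, over the 15 arrays at 24 h and a DMSO array at 48 h, gave 843 to 941 genes higher and 1208 to 1386 lower at 24 h (probe sets 1243 to 1411 and 1708 to 1969). These fits gave 96 to 126 genes with a larger and 127 to 177 with a smaller upper step, and 19 to 32 turned genes. For the time difference they gave 197 to 255 above 0 and 162 to 218 below 0. At 48 h they gave 1245 to 1285 genes higher and 1931 to 1984 lower. No clofibrate array at 48 h was left out, so how far the 48 h counts rest on single arrays cannot be read from these fits. The time difference was probed in its 24 h arrays only. The synthetases Sars1 and Hars1 each lost their call without 1 array. Of the values of single named genes under the alternatives, 4918 kept direction and call, 10 gained and 110 lost the call, and 0 were reversed. Of 51 other probe sets of named genes 0 passed in the opposite direction, and 28 passed in the same direction as the probe set used. For 15 the probe set used passed and the other did not. The labels give no replicate numbers shared between groups, but running numbers in them form 5 sets of 6 with 1 array of every group. A fit with these sets as a replicate block, chosen after seeing the data, gave 954 genes higher and 1420 lower at 24 h, 132 and 196 for the step difference and 30 turned genes. Deviations of same-set arrays at 1000 uM and 60 uM correlated at -0.011 to 0.036, and 1 of 5 arrays correlated best with its own set, so the sets were not taken as pairs. Low signals limit the small changes that could be seen in dim genes.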

Other observations

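Genes of oxidative phosphorylation, the respiratory chain and ATP synthase of mitochondria, passed more often at 48 h than at 24 h. Of 48 measured, 34 were higher and 0 lower at 1000 uM than at 60 uM at 48 h (median 0.19), against 5 higher and 1 lower at 24 h (median 0.02). The difference between the times passed for 16, all above 0 (2.31% of all genes lay above 0), but for 0 with spike-in scaling, where the median difference was 0.186 beside 0.18 without it.

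Of 19 steroid and retinoid metabolism genes 8 were higher and 2 lower at 48 h, and 3 higher and 5 lower at 24 h. Of all genes 11.9% were higher and 18.5% lower at 48 h, and 8.75% and 12.8% at 24 h. Of 20 metallothionein and iron genes 5 were higher and 6 lower at 24 h. Of 22 hepatocyte transcription factor and identity genes 5 were higher and 3 lower, and of 19 interferon-stimulated genes 0 and 2. The lower counts of the hepatocyte identity and interferon lists lie near the 12.8% of all genes.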
